A study of Mus musculus with 48 samples.

Results

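The genes described here are 10 that take up sugar, break it down or report on oxygen: the transporters Slc2a1 and Slc2a5, the glycolytic enzymes Hk2, Pfkl, Aldoa, Pgk1, Pkm and Ldha, and the oxygen-sensing genes Hif1a and Vhl. They were chosen by gene name, with earlier results of these data known, and are 10 of 48526 genes in the deposited table. Microglia, the resident macrophages of the brain, were taken from the hippocampus of C57BL/6 mice whose whole brain had received 8 Gy of X-rays in 1 dose (irradiated) or a sham procedure (sham) on postnatal day 21. Animals were killed 2 h, 6 h, 1 day or 1 week later, which gives 8 groups of 6 animals and 48 libraries, 1 per animal, and each time had sham animals of its own. All cells were sorted on Cx3cr1, a chemokine receptor that microglia carry, after mild enzymatic digestion, and the labels name no genetic change in any group. The values are bulk levels, in which fewer cells of a type and less RNA per cell cannot be told apart.

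Microglia take up glucose through facilitative transporters of the SLC2 family and can make ATP by glycolysis, the cytosolic path from glucose to pyruvate, or by respiration. Activated macrophages are known to raise glycolysis. Hypoxia-inducible factor 1 is the transcription factor that raises glycolytic genes when oxygen is short; its alpha subunit is marked for destruction by the von Hippel-Lindau protein while oxygen is present, so much of its control acts on protein and not on RNA.

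The 48 libraries held 175382 to 3856777 reads on genes, and 3 held under 1000000: library 2 of irradiated 2 h, library 4 of sham 6 h and library 6 of sham 1 day. The 8 microglia markers summed to between 21303 and 44428 reads per 1000000 reads on genes (RPM) in every library. The summed levels of 8 endothelial markers ran from 5.70 to 177 RPM and those of 6 astrocyte markers from 5.46 to 72.0 RPM. Perivascular macrophage markers summed to 26.5 to 215 RPM. At 6 h they held 92.9 to 162 RPM in sham and 26.5 to 69.4 in irradiated libraries, without overlap, and their part in the 6 h changes was not tested. Oligodendrocyte markers summed to 39.1 to 190 RPM and erythrocyte markers to at most 193. Mural cell and neuron markers reached at most 79.3 and 28.9 RPM. Monocyte and neutrophil markers summed to 1.95 to 91.9 RPM, with 1 day medians of 47.5 in irradiated and 19.0 in sham libraries. Of these, Ccr2 and Plac8 had 816 and 1275 reads, and Ly6g and Retnlg none. Lymphocyte markers reached at most 4.16 RPM, with no read on Cd3e or Cd3g of T cells. The sham 6 h group was not uniform. On the first principal component (15.4% of the variance) its libraries 1 to 4 lay at -43.1 to -36.0, within the range of the 2 h groups. Its libraries 5 and 6 lay at 11.3 and 16. The irradiated 6 h libraries lay near these at 12.3 to 21.1, as did sham 1 day at 13.9 to 22.5 and sham 1 week at 15.2 to 22.6. On the third component libraries 5 and 6 lay at -9.94 and -11.9 and the irradiated 6 h libraries at 16.8 to 21.8. Each gene called at 6 h is therefore also given against libraries 5 and 6 alone.

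Levels are recomputed RPKM, reads per kilobase of gene span (introns included) and per 1000000 reads on genes, with their SD over 6 animals. Changes, given with their standard error, are the irradiated less the sham mean of log2(RPKM + 1), adjusted p values are limma's over all 10132 genes tested, and a gene is called changed where that value is under 0.05. This scale understates the change of low genes. Of the 10 genes, 9 passed the filter of 1 RPKM in at least 6 libraries and Pgk1 did not.

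Per kilobase of exon, the scale on which genes can be set side by side, Slc2a5 stood highest in the 24 sham libraries at 191 ± 31.9 RPKM. Hk2 (57.5 ± 12.3), Vhl (55.7 ± 20.7) and Aldoa (48.4 ± 23.1) followed, and these neighbours did not differ beyond their spread. Ldha (25.5 ± 7.72) and Hif1a (23.4 ± 7.70), then Slc2a1 (14.5 ± 8.34) and Pkm (14.4 ± 5.75), formed pairs of like level. Pfkl lay at 6.17 ± 4.28 and Pgk1 at 2.6 ± 1.34 RPKM per kilobase of exon. On this scale the fructose transporter Slc2a5 thus had the highest level of the 10 transcripts in unirradiated microglia, well above the glucose transporter Slc2a1. Exon lengths are those of GENCODE M21. Ldha, Pkm, Aldoa and Pgk1 have 27, 13, 12 and 6 copies elsewhere in the genome, and none was found for Slc2a5, Slc2a1 or Hk2. Reads shared with such copies can be lost or split, so the ranks of Ldha, Pkm, Aldoa and Pgk1 are uncertain.

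Of the 9 genes tested, 3 were called at 2 h, 1 higher and 2 lower, where 8.62% of all tested genes were called, 4.6% higher and 4.02% lower. At 6 h 6 of the 9 were called, 4 higher and 2 lower, against 20.9% of all genes (12.9% higher and 8% lower). Against sham 6 h libraries 5 and 6 alone 1 of the 9 was called, beside 2.09% of all genes. In the 12 libraries of 6 h alone 3 were called, beside 1427 of all 10132 genes. At 1 day 1 was called, lower, against 4.29% of all genes (2.9% higher and 1.39% lower), and at 1 week 1, again lower, against 3.54% (2.03% higher and 1.51% lower). The median change over the 9 genes was -0.01 at 2 h, 0.09 at 6 h, 0.04 at 1 day and -0.11 at 1 week. The median over all tested genes was -0.01, 0.08, 0.00 and 0.05 at the same times. Since the genes were chosen with earlier results of these data known, these counts are no test of the set.

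**Figure D1:**
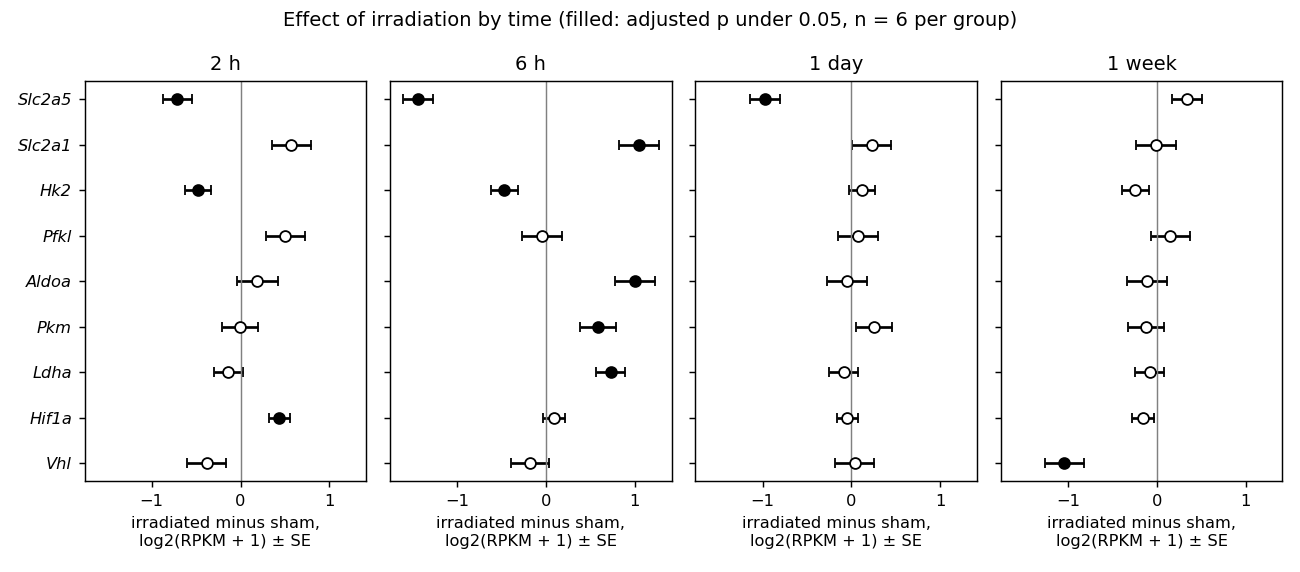
Difference in log2(RPKM + 1), irradiated minus sham (x axis, with the standard error) for the 9 tested genes (y axis) at each time, 6 animals per group. Filled points passed an adjusted p of 0.05: 3 genes at 2 h, 6 at 6 h, and 1 each at 1 day and 1 week, with Slc2a5 below 0 at the first 3 times and Vhl at -1.04 at 1 week.

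Slc2a5 encodes GLUT5, the fructose transporter, which in the brain is known as a transcript of microglia. The gene lies at chr4:150119283-150144169 on the plus strand of GRCm38, with no overlapping gene in the table and no pseudogene copy found, and it had 62377 reads in all libraries, the most of the 10. At 2 h sham libraries ran from 17.8 to 33.2 RPKM with a median of 27.7, and irradiated ones from 10.4 to 21.5 with a median of 16.6. The ranges overlapped, and 4 of 6 irradiated libraries lay below every sham library. The mean fell from 26.9 ± 5.08 to 16.2 ± 4.14 RPKM, a log2 difference of -0.71 ± 0.17 (adjusted p = 0.00313). When the 12 libraries of 2 h were fitted alone, the adjusted p was 0.0525.

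At 6 h the Slc2a5 groups did not overlap. Sham libraries lay between 21.7 and 31.5 RPKM (median 25.0) and irradiated libraries between 7.46 and 10.4 (median 9.05). The mean dropped to 0.343 times the sham mean, from 26.3 ± 3.67 to 9.02 ± 1.17 RPKM, a log2 difference of -1.44 ± 0.17 (adjusted p = 1.00e-08). Against sham libraries 5 and 6 alone the change was -1.50 ± 0.24 (adjusted p = 5.90e-05). Slc2a5 was the 1 gene of the 9 that stayed called in that fit, in which 2.09% of all genes were called. Leaving out any 1 library of the time kept the call, with changes from -1.49 to -1.39.

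Slc2a5 was still low at 1 day. Sham libraries held 13.5 to 29.1 RPKM (median 24.7) and irradiated ones 6.82 to 17.3 (median 11.6), and 4 of 6 irradiated libraries lay below every sham library. The lowest sham value came from library 6, the shallowest of the study, with 59 Slc2a5 reads. The change was -0.98 ± 0.17 (adjusted p = 6.93e-05), and -1.12 without the libraries under 1000000 reads. At 1 week the order had turned: irradiated libraries held 30.0 to 41.1 RPKM (median 34.7) and sham ones 23.6 to 30.9 (median 27.2), with 5 of 6 irradiated libraries above every sham library. This 1 week difference of 0.34 ± 0.17 was not past the threshold (adjusted p = 0.266).

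The effect on Slc2a5 differed between times. It was lower at 6 h than at 2 h by -0.73 ± 0.24 (adjusted p = 0.0415, a difference called for 9.28% of all genes), and higher at 1 week than at 1 day by 1.32 ± 0.24 (adjusted p = 0.000416, called for 5.43%). From 6 h to 1 day the difference of 0.47 ± 0.24 was not past the threshold (adjusted p = 0.277, called for 4.38%). With sham 6 h libraries 5 and 6 alone the 2 h to 6 h difference was -0.79 ± 0.30 (adjusted p = 0.376), and with no filter beyond a read in at least 6 libraries its adjusted p was 0.0594. The summed microglia markers at 2 h held 28685 to 40153 RPM (median 33206) in irradiated and 31493 to 42337 (median 40617) in sham libraries. Their ranges did not overlap at 6 h, at 29505 to 32443 RPM against 37821 to 42160, or at 1 day, at 21303 to 31027 against 31434 to 40446, lower after irradiation at both. At 1 week they lay at 37174 to 44428 against 34283 to 37944. At 6 h mitochondrial genes took 3.09% to 7.11% of sham reads and 2.35% to 4.34% of irradiated ones, and at 1 day 1.53% to 4.76% and 1.52% to 3.19%. The part of either in the Slc2a5 changes, and of the mitochondrial share in the other 6 h calls, was not tested.

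Slc2a1 encodes GLUT1, the glucose transporter of most cells, which is also abundant in the endothelium of brain vessels. It lies at chr4:119108711-119137983, plus strand, and shares positions with Gm12867, Gm12868 and Mir1957a, which had 37, 12 and 9 reads in all libraries against 6854 for Slc2a1. At 6 h the groups did not overlap: sham libraries held 0.920 to 1.89 RPKM (median 1.42) and irradiated ones 2.85 to 6.16 (median 3.71). The mean rose to 2.85 times the sham mean, from 1.40 ± 0.420 to 3.99 ± 1.17 RPKM, a log2 difference of 1.05 ± 0.22 (adjusted p = 0.000615).

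Against sham libraries 5 and 6 alone the Slc2a1 change was 0.81 ± 0.32 with an adjusted p of 0.294. Those libraries held 1.71 and 1.89 RPKM, and libraries 1 to 4 held 0.920 to 1.72, so that all 6 sham libraries lay below the lowest irradiated one. Endothelial markers overlapped at 6 h, with 26.3 to 74.1 RPM in sham and 33.7 to 80.9 in irradiated libraries. Astrocyte markers held 11.4 to 39.5 RPM in sham and 33.7 to 69.5 in irradiated libraries at that time. The part of either cell type in the 6 h change was not tested.

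At 2 h the Slc2a1 difference of 0.57 ± 0.22 was not past the threshold (adjusted p = 0.112). Sham libraries held 0.490 to 5.71 RPKM (median 1.18) and irradiated ones 1.52 to 5.27 (median 2.38). Sham library 3 stood apart with 5.71 RPKM while the other 5 sham libraries lay at 0.490 to 1.38, below all 6 irradiated ones. The same library had the highest endothelial markers of all 48, 177 RPM against 26.7 to 63.5 in the other sham 2 h libraries. Irradiated 2 h libraries held 24.0 to 97.1 RPM of these markers. The highest of them, library 1, ranked 2 of all 48 and had 3.04 RPKM of Slc2a1. Without sham library 3 the change was 0.87 and the adjusted p 0.00099, with all irradiated libraries kept. By RPM without the gene span (adjusted p = 0.0452) and by limma-voom on the recovered reads (adjusted p = 0.0271) the 2 h change was called with all libraries. The part of endothelial RNA in this value was not tested. At 1 day the Slc2a1 change was 0.23 ± 0.22 (adjusted p = 0.705) and at 1 week -0.01 ± 0.22 (adjusted p = 0.991).

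**Figure D2:**
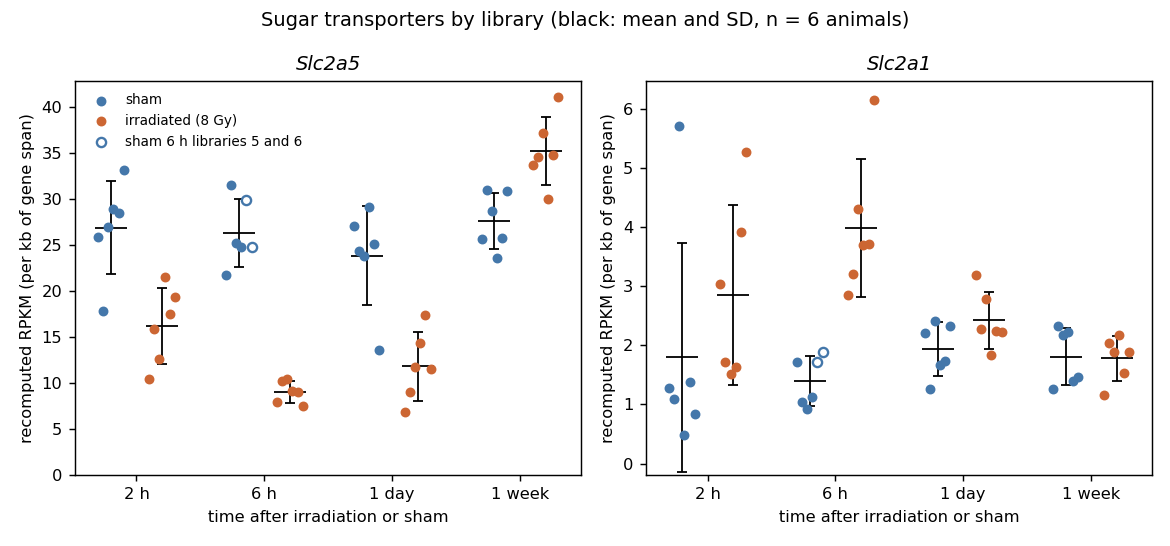
Recomputed RPKM of Slc2a5 (left) and Slc2a1 (right) in each library (points) by time, with the group mean and SD in black (6 animals per group); open points are sham 6 h libraries 5 and 6. Slc2a5 in irradiated libraries lies at 7.46 to 10.4 RPKM at 6 h and at 30.0 to 41.1 at 1 week, and the single high sham point of Slc2a1 at 2 h is library 3 at 5.71.

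To show the stretch of DNA next to these genes, the bases before the annotated start are given from RefSeq on GRCm38.p6. The genes shown are Slc2a5 and 3 enzymes called in different directions at 6 h against all 6 sham libraries (Hk2, Aldoa and Ldha). The letters ACGTG, a form of the core of the hypoxia response element, were searched on both strands (CACGT on the other), and matches are in capitals. The form GCGTG was not searched. Where both strands matched over shared bases, as CACGTG, the whole stretch is in capitals. Each sequence is written on the gene's own strand and ends before the first annotated base of a transcript's leader.
Hk2, chr6:82774455-82774704, minus strand: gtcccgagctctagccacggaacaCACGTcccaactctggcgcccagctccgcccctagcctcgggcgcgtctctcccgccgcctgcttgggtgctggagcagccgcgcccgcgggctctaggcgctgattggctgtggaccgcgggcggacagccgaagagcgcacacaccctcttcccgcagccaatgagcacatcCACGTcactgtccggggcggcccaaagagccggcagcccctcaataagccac
Aldoa, chr7:126799255-126799504, minus strand: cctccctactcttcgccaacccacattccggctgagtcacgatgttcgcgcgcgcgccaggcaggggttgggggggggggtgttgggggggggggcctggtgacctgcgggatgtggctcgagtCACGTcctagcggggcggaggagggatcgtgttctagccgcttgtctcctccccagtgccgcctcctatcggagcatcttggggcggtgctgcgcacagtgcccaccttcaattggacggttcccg
Ldha, chr7:46845554-46845803, plus strand: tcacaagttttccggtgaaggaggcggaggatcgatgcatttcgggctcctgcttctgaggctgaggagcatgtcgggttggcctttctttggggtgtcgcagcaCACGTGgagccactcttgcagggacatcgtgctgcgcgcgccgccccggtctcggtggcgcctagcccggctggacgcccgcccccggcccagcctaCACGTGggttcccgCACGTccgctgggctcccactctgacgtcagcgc
Slc2a5, chr4:150119094-150119282, plus strand: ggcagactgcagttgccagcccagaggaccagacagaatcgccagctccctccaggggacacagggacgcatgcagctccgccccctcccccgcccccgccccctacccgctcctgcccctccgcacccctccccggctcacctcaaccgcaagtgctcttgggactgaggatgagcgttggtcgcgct

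Ldha held the letters at 3 places in its 250 bases, 145, 48 and 34 bases before the start. At 145 and 48 bases both strands matched, as CACGTG. Hk2 held the letters at 2 places (226 and 52 bases before) and Aldoa at 1 (126 bases before). None of the 250 bases before the Slc2a5 start matched. Each start is that of 1 RefSeq transcript, and those of Ldha and Aldoa lie inside the gene spans of the deposited table. RefSeq gives Ldha a second window, with no match, and Aldoa 2 more, of which 1 overlaps the printed window and holds the letters once and the other has no match. Of the 14 windows RefSeq gives for the 10 genes, 8 held the letters, and of all 32851 windows of that length in the table, 16.6% did. The same Aldoa bases count in 2 of the 8. By gene, 7 of the 10 held the letters in at least 1 window, including Hif1a, not called at 6 h, and Pgk1, not tested. Both Hk2, called lower at 6 h against all 6 sham libraries, and Ldha and Aldoa, called higher, had them. Against sham libraries 5 and 6 alone none of these 3 genes was called. A match is a description of the letters and not of a bound site, and no match says only that they are not in this window.

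Hk2 encodes hexokinase 2, which traps glucose in the cell as the first step of glycolysis. It lies at chr6:82725025-82774454, minus strand, and overlaps Gm17034 on the other strand, which had 1020 reads against 32664 for Hk2. At 2 h sham libraries held 5.98 to 9.0 RPKM (median 7.40) and irradiated ones 3.83 to 6.91 (median 4.70), with 5 of 6 irradiated libraries below every sham library. The mean fell from 7.28 ± 1.18 to 4.98 ± 1.09 RPKM, a log2 difference of -0.48 ± 0.15 (adjusted p = 0.0342). This call was lost in 8 of 12 fits that each left out 1 library (sham 1, 3, 4 and 6, irradiated 1, 2, 3 and 5), with changes of -0.48 to -0.42 and adjusted p values up to 0.0973. It was also lost in the 12 libraries of 2 h alone (adjusted p = 0.0812), without libraries under 1000000 reads (adjusted p = 0.0650) and by limma-voom (adjusted p = 0.0589).

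At 6 h Hk2 again was lower after irradiation, at 4.16 to 6.32 RPKM (median 4.94) against 4.73 to 9.37 (median 8.14). The change was -0.47 ± 0.15 (adjusted p = 0.0197). Sham libraries 5 and 6, at 6.14 and 4.73 RPKM, lay inside the irradiated range, and libraries 1 to 4, at 7.63 to 9.37, lay above it. Against libraries 5 and 6 alone the change was -0.07 ± 0.20 (adjusted p = 0.973). The call was lost without sham library 1, 2 or 3 or irradiated library 1, with adjusted p values of 0.0590, 0.0532, 0.0642 and 0.0531, and in the 12 libraries of 6 h alone (adjusted p = 0.0684). At 1 day (0.12 ± 0.15, adjusted p = 0.778) and 1 week (-0.24 ± 0.15, adjusted p = 0.406) no change was called.

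Pfkl encodes the liver-type phosphofructokinase, the committing step of glycolysis. It lies at chr10:77986947-78010083, minus strand. At 2 h 5 of 6 irradiated libraries lay above every sham library, with 1.25 to 2.25 RPKM (median 1.73) against 0.428 to 1.32 (median 0.992), but the change of 0.51 ± 0.22 did not pass the threshold (adjusted p = 0.176). In the 12 libraries of 2 h alone the adjusted p was 0.0482. At the later times its changes ran from -0.04 at 6 h to 0.15 at 1 week, with adjusted p values of 0.780 to 0.929. Against sham 6 h libraries 5 and 6 alone its adjusted p was 1.0.

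Aldoa encodes aldolase A, which splits fructose bisphosphate into 2 trioses. The deposited coordinates, chr7:126795234-126809108, differ from those of GENCODE M21, and the gene overlaps Fam57b and Gm44856, with 4 reads and 1 read in all libraries. At 6 h every irradiated library lay above every sham library, with 14.5 to 20.2 RPKM (median 17.0) against 5.42 to 14.2 (median 6.36). The mean rose from 8.70 ± 4.16 to 17.2 ± 1.86 RPKM, a log2 difference of 1.00 ± 0.23 (adjusted p = 0.00127). The sham group held separate levels: libraries 1 to 4 had 5.42 to 6.55 RPKM and libraries 5 and 6 had 13.9 and 14.2. Against libraries 5 and 6 alone the change was 0.27 ± 0.29 (adjusted p = 0.913), and against libraries 1 to 4 alone 1.37 ± 0.23 (adjusted p = 1.00e-05).

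No change in Aldoa was called at 2 h (0.19 ± 0.23, adjusted p = 0.729), 1 day (-0.05 ± 0.23, adjusted p = 0.961) or 1 week (-0.11 ± 0.23, adjusted p = 0.858). The table holds 9 of the 12 copies found for Aldoa, of which the retrogenes Aldoart1 and Aldoart2 were found by name and not by sequence, with 107 reads in all against 16980 for the gene.

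Pgk1 encodes phosphoglycerate kinase 1, the first ATP-yielding step. The gene, at chrX:106187100-106203699 on the plus strand, had 647 reads in all 48 libraries and at most 33 in any, and no library reached 1 RPKM. Group means ran from 0.274 ± 0.159 RPKM in sham 1 day to 0.463 ± 0.197 in irradiated 2 h libraries. With no filter beyond a read in at least 6 libraries no change was called at any time, with adjusted p values from 0.609 at 1 day to 0.982 at 1 week (5.38%, 12.6%, 2.63% and 1.74% of 19900 genes were called there from 2 h to 1 week).

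Processed pseudogenes are copies of a spliced transcript put back into the genome, and reads that match both places can be lost or split. For Pgk1, 6 were found, and the copies Pgk1-rs7 and Gm5537, with 23 and 3 reads, were 100% identical to the Pgk1 transcript over their length. How the authors counted reads that map to several places is not given in the sources used here, so the low Pgk1 level is uncertain.

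Pkm encodes the muscle-type pyruvate kinase, which makes pyruvate. It lies at chr9:59656368-59679375, plus strand. At 6 h irradiated libraries held 3.14 to 6.68 RPKM (median 4.74) and sham ones 1.83 to 4.51 (median 2.72), and the ranges overlapped, with 3 of 6 irradiated libraries above every sham library. The mean rose from 2.89 ± 1.08 to 4.80 ± 1.3 RPKM, a log2 difference of 0.59 ± 0.20 (adjusted p = 0.0319). The call was lost without sham library 1, 2 or 3 or irradiated library 3, 4 or 5, with adjusted p values of 0.0635 to 0.0938, and against sham libraries 5 and 6 alone the change was 0.35 ± 0.28 (adjusted p = 0.815). The call was also lost in the 12 libraries of 6 h alone (adjusted p = 0.0732) and with the trend over gene span removed (adjusted p = 0.0610). Its changes at the other times ran from -0.12 at 1 week to 0.26 at 1 day, with adjusted p values of 0.609 or more. The table has 8 of 13 copies of Pkm, with 65 reads against 8648, and the copy with the most, Gm6560, had 53 reads at 98.4% identity.

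Ldha encodes the A subunit of lactate dehydrogenase, which turns pyruvate into lactate. It lies at chr7:46841475-46855627, plus strand. At 6 h irradiated libraries held 8.16 to 12.2 RPKM (median 9.89) and sham ones 3.19 to 9.13 (median 6.20), with 5 of 6 irradiated libraries above every sham library. The mean rose from 6.14 ± 2.73 to 10.2 ± 1.48 RPKM, a log2 difference of 0.73 ± 0.16 (adjusted p = 0.000989).

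The Ldha rise also depended on the sham libraries it was set against. Sham libraries 5 and 6 held 9.13 and 8.84 RPKM and libraries 1 to 4 held 3.19 to 7.64. Against libraries 5 and 6 alone the change was 0.15 ± 0.17 (adjusted p = 0.916). In the 12 libraries of 6 h alone the adjusted p was 0.0629. No change was called at 2 h (-0.14 ± 0.16, adjusted p = 0.728), 1 day (-0.08 ± 0.16, adjusted p = 0.875) or 1 week (-0.08 ± 0.16, adjusted p = 0.856).

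The Ldha effect was higher at 6 h than at 2 h by 0.86 ± 0.23 (adjusted p = 0.0131) and lower at 1 day than at 6 h by -0.81 ± 0.23 (adjusted p = 0.0323). With sham 6 h libraries 5 and 6 alone these differences were 0.29 (adjusted p = 0.817) and -0.23 (adjusted p = 0.873). The second call was also lost with the trend over gene span removed (adjusted p = 0.0821) and without libraries under 1000000 reads (adjusted p = 0.0541). Ldha had the most copies of the 10 genes, 27, of which 18 are in the table with 649 reads, 6.69% of the 9695 reads on Ldha. Gm7997 with 256 reads, Gm13315 with 227 and Gm15707 with 61 held most of them.

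**Figure D3:**
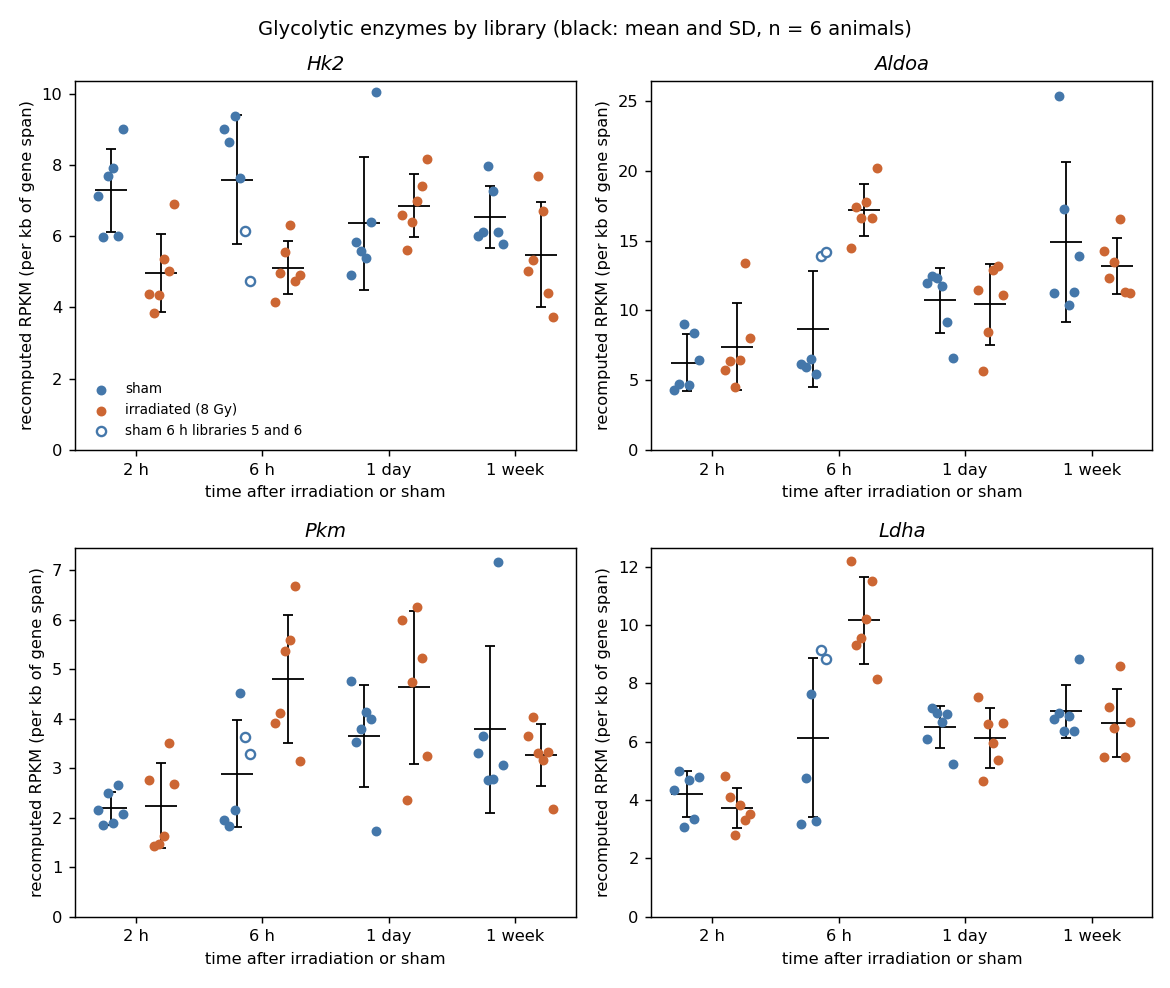
Recomputed RPKM of Hk2, Aldoa, Pkm and Ldha in each library (points) by time, with the group mean and SD in black (6 animals per group); open points are sham 6 h libraries 5 and 6. For Aldoa these lie at 13.9 and 14.2 RPKM, just under the irradiated range of 14.5 to 20.2, while the other sham 6 h libraries lie at 5.42 to 6.55.

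**Figure D4:**
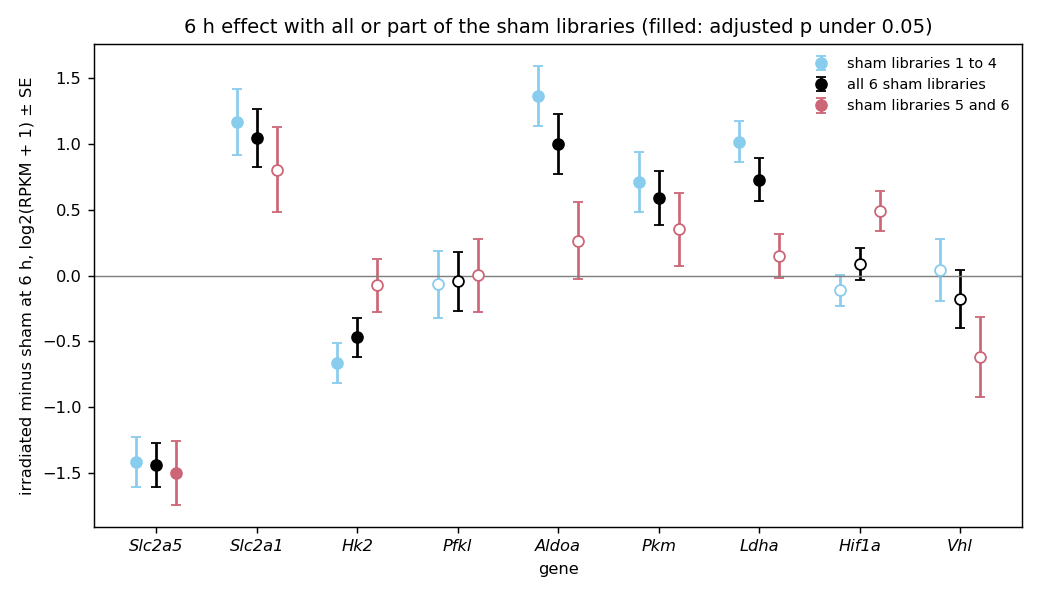
Irradiated minus sham at 6 h on the log2(RPKM + 1) scale with its standard error (y axis) for each tested gene (x axis), against all 6 sham libraries, libraries 1 to 4 or libraries 5 and 6; filled points passed an adjusted p of 0.05. Slc2a5 stays between -1.50 and -1.42 in all 3, and Aldoa moves from 1.37 against libraries 1 to 4 to 0.27 against libraries 5 and 6.

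Hif1a encodes the oxygen-regulated subunit of hypoxia-inducible factor 1. It lies at chr12:73901375-73947530, plus strand, and overlaps Gm15283 on the other strand, with 330 reads against 14953. At 2 h irradiated libraries held 4.38 to 5.91 RPKM (median 5.69) and sham ones 2.51 to 5.0 (median 3.83), with 5 of 6 irradiated libraries above every sham library. The mean rose from 3.82 ± 0.941 to 5.45 ± 0.598 RPKM, a log2 difference of 0.44 ± 0.12 (adjusted p = 0.0139). Without sham library 2, the lowest, the change was 0.35 and the adjusted p 0.0651, and in the 12 libraries of 2 h alone the adjusted p was 0.11.

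After 2 h no Hif1a change was called: the values were 0.09 ± 0.12 at 6 h (adjusted p = 0.650), -0.04 ± 0.12 at 1 day (adjusted p = 0.922) and -0.16 ± 0.12 at 1 week (adjusted p = 0.530). The effect at 6 h less that at 2 h was -0.35 ± 0.17, not past the threshold (adjusted p = 0.205). At 6 h sham libraries 5 and 6, at 2.42 and 2.38 RPKM, lay below all irradiated libraries, and libraries 1 to 4, at 3.66 to 4.83, lay around them. Against libraries 5 and 6 alone the 6 h value was 0.49 ± 0.15 (adjusted p = 0.0850). The share of reads on mitochondrial genes at 2 h was 3.05% to 9.34% in sham and 6.14% to 14.6% in irradiated libraries, and its part in the 2 h changes of Hif1a, Slc2a5 and Hk2 was not tested.

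Vhl encodes the subunit that recognises hydroxylated Hif1a in the ubiquitin ligase that removes it. It lies at chr6:113623959-113631633, plus strand, and had 1 pseudogene copy, found by name, with no read. At 1 week irradiated libraries held 6.49 to 24.0 RPKM (median 13.0) and sham ones 21.6 to 37.2 (median 26.6), with 5 of 6 irradiated libraries below every sham library. The mean fell from 28.2 ± 6.39 to 14.0 ± 6.22 RPKM, a log2 difference of -1.04 ± 0.22 (adjusted p = 0.00373). Leaving out any 1 library of the time kept the call, with changes of -1.21 to -0.86, and in the 12 libraries of 1 week alone the adjusted p was 0.0567.

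At the earlier times Vhl was not called changed, with -0.38 ± 0.22 at 2 h (adjusted p = 0.350), -0.18 ± 0.22 at 6 h (adjusted p = 0.618) and 0.04 ± 0.22 at 1 day (adjusted p = 0.971). Against sham 6 h libraries 5 and 6 alone the 6 h value was -0.62 ± 0.31 (adjusted p = 0.496). The effect was lower at 1 week than at 1 day by -1.08 ± 0.31 (adjusted p = 0.0316). At 1 week the mitochondrial share was 1.42% to 2.36% in sham and 2.56% to 4.38% in irradiated libraries, and its part in the Vhl change was not tested.

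**Figure D5:**
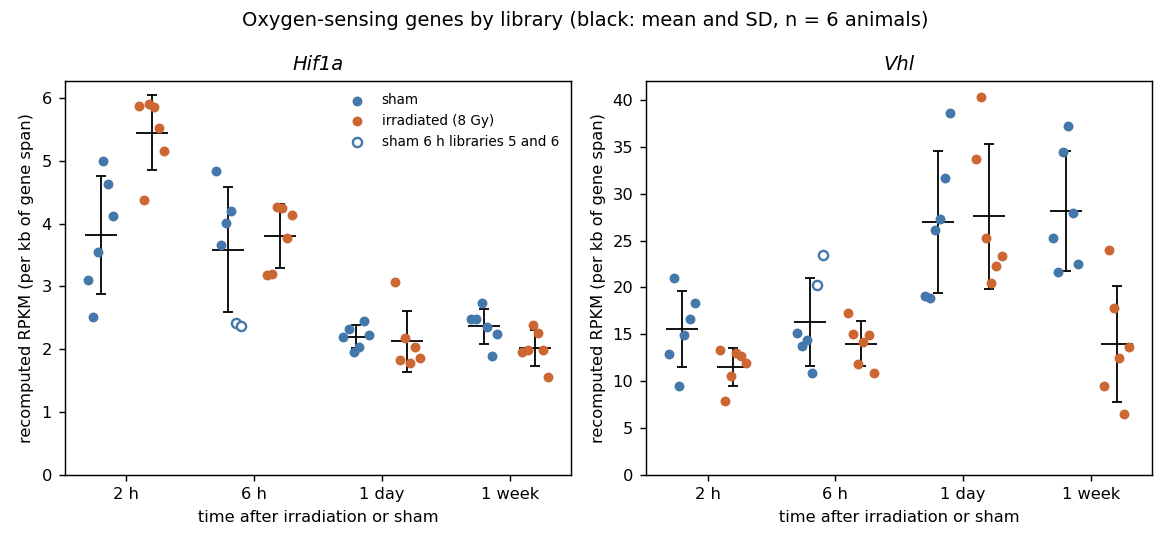
Recomputed RPKM of Hif1a (left) and Vhl (right) in each library (points) by time, with the group mean and SD in black (6 animals per group); open points are sham 6 h libraries 5 and 6. Hif1a is highest in irradiated 2 h libraries at 4.38 to 5.91 RPKM, and Vhl in irradiated libraries falls from 20.5 to 40.3 RPKM at 1 day to 6.49 to 24.0 at 1 week.

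Levels of some of these genes also differed among the sham groups. By limma's F test over the 4 sham groups, 5 of the 9 tested genes were called, against 21.1% of all genes. Hif1a was lower in the later groups, from 3.82 RPKM at 2 h and 3.58 at 6 h to 2.2 at 1 day and 2.37 at 1 week (adjusted p = 0.000334). Aldoa was higher in them, from 6.27 to 14.9 RPKM between 2 h and 1 week (adjusted p = 0.00194), as were Vhl, from 15.6 to 28.2 (adjusted p = 0.00289), and Ldha, from 4.2 to 7.04 (adjusted p = 0.0136). Pfkl was the fifth (adjusted p = 0.0422), with its highest mean, 2.68 RPKM, at 6 h, where library 1 alone held 6.57. The sham means of Slc2a5 lay between 23.8 and 27.6 RPKM (adjusted p = 0.701). The age of the animals and the time since the procedure rise together over these groups and cannot be told apart. The sham 6 h group, of 1 time, was itself split. The means of its libraries 1 to 4 and of libraries 5 and 6 were 4.18 and 2.40 RPKM for Hif1a and 6.02 and 14.0 for Aldoa. For Ldha they were 4.72 and 8.99, and for Vhl 13.5 and 21.9. What set these libraries apart was not tested.

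Other genes of these pathways were read from lists of 76 genes, of which 37 were tested. Their counts stand beside the shares of all tested genes called, 8.62% at 2 h, 20.9% at 6 h, 4.29% at 1 day and 3.54% at 1 week. Of the other glycolytic enzymes 11 of 24 were tested, and none was called at 2 h or 1 day. At 6 h Aldoc, a second aldolase that astrocytes express strongly, rose by 0.70 ± 0.23 (adjusted p = 0.0266; 0.087 to 1.22 RPKM in sham, 0.400 to 3.44 in irradiated libraries) and Gpi1, glucose phosphate isomerase, by 0.37 ± 0.13 (adjusted p = 0.0307). These are 2 of 11 genes, both higher, where 12.9% of all genes were called higher. Both calls were lost against sham libraries 5 and 6 alone, with Aldoc at 0.65 (adjusted p = 0.513) and Gpi1 at 0.12 (adjusted p = 0.948), and in 4 (Aldoc) and 6 (Gpi1) of 12 fits that left out 1 library. Astrocyte markers, Aldoc among them, held 11.4 to 39.5 RPM in sham and 33.7 to 69.5 in irradiated 6 h libraries, and their part was not tested. At 1 week Hk3, the hexokinase of myeloid cells, rose by 1.13 ± 0.33 (adjusted p = 0.0420), with 5.90 to 44.7 RPKM (median 14.2) against 4.80 to 7.22 (median 6.06). The Hk3 call was lost in 9 of 12 fits that left out 1 library, with adjusted p values up to 0.132.

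Ldhb and Tpi1, the highest tested genes of that list per gene span, were at 20.4 ± 4.17 and 21.3 ± 26 RPKM in sham 2 h libraries. Neither was called at any of the 4 times. Pseudogene copies were not searched for the genes of that list, and reads shared with copies can be lost or split, so this ranking is uncertain. Of 14 other sugar and lactate transport genes 4 were tested. Slc16a3, the lactate exporter MCT4, rose at 1 week by 0.79 ± 0.23 (adjusted p = 0.0419), from 3.15 ± 1.29 to 6.09 ± 2.07 RPKM, a call lost in 7 of 12 fits that left out 1 library, and no gene of this list was called earlier.

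Of 28 other hypoxia genes 13 were tested. Pdk1, a kinase that holds back pyruvate dehydrogenase, and Bnip3l, a mitophagy receptor, are known targets of hypoxia-inducible factor. Both fell at 2 h and again at 1 week. At 2 h every irradiated library lay below every sham library for Pdk1, with 2.67 to 3.75 RPKM (median 3.17) against 4.49 to 7.06 (median 5.83), a change of -0.68 ± 0.16 (adjusted p = 0.00237). Bnip3l changed by -0.52 ± 0.13 (adjusted p = 0.00784). At 1 week Pdk1 changed by -0.78 ± 0.16 (adjusted p = 0.00237) and Bnip3l by -0.62 ± 0.13 (adjusted p = 0.00544), the latter with all 6 irradiated libraries (2.39 to 4.36 RPKM) below every sham library (4.94 to 6.91). No library left out alone ended any of these 4 calls. The other 11 tested genes of the list were not called at either time. Among them Ddit4 was higher after irradiation, by 1.57 ± 0.53 at 2 h (adjusted p = 0.0525) and 1.17 ± 0.53 at 1 week (adjusted p = 0.217).

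At 6 h 2 of the 13 hypoxia genes rose and 2 fell, beside 12.9% and 8% of all tested genes. Tceb2, elongin B, a partner of the Vhl protein, rose by 1.09 ± 0.22 (adjusted p = 0.000334) and Egln2, a prolyl hydroxylase, by 0.55 ± 0.18 (adjusted p = 0.0233). Mxi1 fell by 0.43 on the log2 scale, with all irradiated libraries (0.786 to 1.15 RPKM) below all sham ones (1.43 to 1.82; adjusted p = 0.00413), and Hif1an, the asparagine hydroxylase of Hif1a, fell by 0.49 (adjusted p = 0.0470). The Hif1an call was lost in 9 and the Egln2 call in 4 of 12 fits that left out 1 library, with adjusted p values up to 0.134 and 0.0916. Against sham libraries 5 and 6 alone Tceb2 was at 0.27 (adjusted p = 0.897), Egln2 at 0.48 (0.517 as adjusted p), Mxi1 at -0.37 (adjusted p = 0.379) and Hif1an at -0.18 (adjusted p = 0.948). At 1 day none of the 13 was called.

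The pentose phosphate pathway branches from glycolysis and yields NADPH and ribose. Of its 10 genes 9 were tested, and at 6 h 4 rose: Prps2, phosphoribosyl pyrophosphate synthetase 2, by 0.53 ± 0.12 (adjusted p = 0.00132), G6pdx, the entry enzyme, by 0.54 ± 0.15 (adjusted p = 0.00844), Pgd by 0.45 ± 0.15 (adjusted p = 0.0228) and Pgls by 0.99 ± 0.32 (adjusted p = 0.0252). Of all tested genes 12.9% were called higher at 6 h. The list's median change was 0.43, beside 0.08 for all tested genes. The Pgd and Pgls calls were each lost in 4 of 12 fits that left out 1 library. Prps2 held 2.63 to 3.84 RPKM in irradiated and 1.22 to 2.58 in sham libraries, and against sham libraries 5 and 6 alone it changed by 0.78 ± 0.17 (adjusted p = 0.003). It was the 1 gene of the 37 called in that comparison; G6pdx was then at 0.13 (adjusted p = 0.948), Pgd at 0.51 (adjusted p = 0.181) and Pgls at 0.52 (adjusted p = 0.869). At 2 h H6pd, the hexose-6-phosphate dehydrogenase of the endoplasmic reticulum, fell by 0.38 on the log2 scale (adjusted p = 0.0376), with all 6 irradiated libraries below every sham library. This call was lost in 7 of 12 fits that left out 1 library, with adjusted p values up to 0.102, and no gene of the pathway was called at 1 day or 1 week.

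Across the 48 libraries, which differ in treatment and time, the levels of Aldoa, Ldha and Pkm went together, with a Pearson r of log2(RPKM + 1) of 0.70 for Aldoa and Ldha, 0.64 for Aldoa and Pkm and 0.55 for Pkm and Ldha. Slc2a1 and Slc2a5 had an r of -0.57 and Hif1a and Vhl of -0.52. Over all tested genes, the pattern most like that of Slc2a5 was that of Ptgs1 (r = 0.83), Capn3 (0.83 as r) and Fads1 (r = 0.80), and that of Vhl was most like Slc29a3 (r = 0.89), Tpm3 and Calm2 (r = 0.87 each). Hif1a stood nearest to Kpna4, Tmem123 and Plek (r = 0.85 each), Aldoa to Arpc1b, Tyrobp (r = 0.83 each) and Ly6e (r = 0.82), and Ldha to Actb, Arhgdib (r = 0.81 each) and Psap (r = 0.80). The highest r was lower for Pkm (Ctsd, 0.75), Hk2 (Qk, 0.74), Slc2a1 (Fastkd2, 0.67) and Pfkl (Ercc1, 0.58). These values describe the libraries, which share depth and group structure.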

How the data were processed

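RNA of sorted hippocampal microglia was sequenced from 48 animals and the libraries were made with Qiagen's QIAseq FX kit for single cells, per the labels' protocols. STAR 2.6.1d, featureCounts 1.5.1, FastQC 0.11.8 and bcl2fastq 2.20.0 are named in the submitters' processing notes, as are the builds GRCm38 and mm10. The annotation, the strand setting and the treatment of multiply mapped reads are not given in the sources used here.

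The authors deposited RPKM values for 48526 genes. All 719081 values that are not 0 equal whole reads (tolerance 0.001 reads) divided by the gene span, introns included, and by a library total, but the total was the library's own for only 2.05% of values. Whole reads were recovered for 100% of the values, and RPKM was recomputed with each library's matched total. In 31 of 48 libraries the reads summed to a total exactly, and the others fell short by at most 13 reads. The ratio of deposited to recomputed RPKM was 0.436 at the 5th and 3.11 at the 95th percentile. Recovery was checked on simulated data.

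Genes with RPKM of at least 1 in at least 6 libraries were fitted with limma 3.58.1 (R 4.3.3) on log2(RPKM + 1), with 8 group means, trend and robust eBayes and 40 residual degrees of freedom. Tests are two-sided, with Benjamini-Hochberg adjustment over all 10132 genes at 0.05. Each 6 h value was also fitted against parts of the sham group, and other alternatives are in the closing section. Pseudogene copies had at least 80% identity over at least 50% of their length (BLAST+ 2.17.0, GENCODE M21 transcripts), except Aldoart1, Aldoart2 and Vhl-ps1, found by name alone. Other pathway genes are named where called, at most 4 per list and time by adjusted p, or else up to 2 by mean level. Ddit4 is named besides for the size of its change. Likeness is the 3 highest Pearson correlations. The members and lists were chosen with earlier results of these data known. The labels name no molecular identifiers and no sex.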

Additional observations from a re-analysis of the deposited data

Results flagged for a closer look

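In 9 of 80 groups of 6 libraries, 1 library stood apart from the other 5 by Dixon's ratio, where chance gives about 4. Sham 1 day library 6, of 175382 reads, had the highest Hk2 of its group (10.04 RPKM, 87 reads; the others 4.90 to 6.40) and the lowest Slc2a5 (13.5 RPKM; the others 23.8 to 29.1). Sham 6 h library 1 was highest for Pfkl (6.57 RPKM; the others 1.18 to 2.59) and Pgk1 (0.689 RPKM, 33 reads; the others 0.331 to 0.456). Sham 2 h library 3 was highest for Slc2a1 (5.71 RPKM; the others 0.490 to 1.38). Among the sham 1 week libraries, library 5 was highest for Pkm (7.17 RPKM; the others 2.76 to 3.65) and library 6 for Ldha (8.84 RPKM; the others 6.36 to 6.97). In the irradiated 1 day group, library 6 was highest for Pfkl (4.01 RPKM; the others 0.877 to 2.03) and library 1 for Hif1a (3.07 RPKM; the others 1.78 to 2.19).

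The irradiation effect differed between adjacent times for 3 genes by limma's interaction terms. From 2 h to 6 h the effect on Ldha moved by 0.86 and that on Slc2a5 by -0.73. From 6 h to 1 day the effect on Ldha moved by -0.81. From 1 day to 1 week the effect on Slc2a5 moved by 1.32 and that on Vhl by -1.08.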

How the results depend on the processing

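Of 432 values of single genes with 1 library left out, and of 657 under the other alternatives, 20 and 31 changed sign, all of them past the threshold neither before nor after. Leaving out 1 library gave 2 to 3 members called at 2 h, 4 to 6 at 6 h, 1 at 1 day and 1 at 1 week; for all genes it gave 732 to 853, 1629 to 2537, 343 to 495 and 137 to 495 calls, against 873, 2120, 435 and 359 with all libraries. The 1 week count moved by over 1.5 times without sham library 4 (137) or 5 (225) or irradiated library 1 (165), 4 (226), 5 (158) or 6 (205). Against sham 6 h libraries 5 and 6 alone, 1 member, 1 other pathway gene and 212 genes in all were called at 6 h, and 0 members differed in effect between 2 h and 6 h or between 6 h and 1 day; against libraries 1 to 4 alone, 4 and 3 members did. This fit has fewer samples.

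In the 12 libraries of a time alone, which leave fewer degrees of freedom, 1 member, 1 other pathway gene and 513 genes were called at 2 h, 3 members and 5 other pathway genes at 6 h, 259 genes at 1 day, and 0 members and 2 other pathway genes at 1 week. The values as deposited, divided by totals of other libraries, gave 0 members and 0 other pathway genes called at every time, 0 for each difference between times and 0 among the sham groups, and 52, 64, 39 and 11 genes in all from 2 h to 1 week. Other pathway genes called were 6 at 2 h, 1 at 1 day and 2 at 1 week with no filter beyond a read in at least 6 libraries, 6 at 2 h and 1 at 1 day by RPM, 6 at 6 h with the gene span trend removed, 1 at 1 day without libraries under 1000000 reads, and 2 at 1 week with a pseudocount of 0.1 or median-of-ratios scaling. Members that differed in effect between 2 h and 6 h were 1 without the filter; between 6 h and 1 day they were 2 by RPM or median-of-ratios scaling and 0 with the span trend removed, and members that differed among the sham groups were then 2. By limma-voom on the recovered reads, chosen after seeing the data, 673 genes were called at 1 day and 854 at 1 week, with 2 other pathway genes at 1 day and 3 members that differed between 6 h and 1 day. Except where a fit has fewer samples or genes, the cause was not tested.

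The labels number the animals 1 to 6 in each group, but the numbers did not pair them: same-numbered sham and irradiated libraries had correlations of deviations of -0.107 to 0.137, over 0.1 in 2 of 24 pairs, and 12 of 48 libraries were nearest to their own number. With a replicate block 3, 6, 1 and 1 members were called from 2 h to 1 week, as without it; 0 members then differed in effect between 6 h and 1 day (Ldha, adjusted p = 0.0633) and 1 between 1 day and 1 week (Vhl lost, adjusted p = 0.0904). Pfkl, Slc2a1 and Pgk1 were the shallowest members, and no change was called in Pgk1, at 0 to 33 reads per library.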
